A study of Mus musculus with 12 samples.

Results

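RNA of tumor-associated macrophages from mouse melanomas was compared between mice given a CD40 agonist alone and Control mice, with 3 libraries in each group. These 6 libraries were chosen by their labels from the 12 of the series. In the 6 libraries 14653 of 34989 genes had enough counts to be tested. The CD40 agonist was FGK4.5, an antibody that binds and activates CD40, given intraperitoneally at 10 mg/kg every 3 days for at most 10 doses. Control libraries carry no antibody or inhibitor label, and the protocol names PBS as the vehicle of some experiments without saying which libraries received it. All mice carried Tyr::CreER, a Cre recombinase driven by the tyrosinase promoter of melanocytes, and melanomas were induced locally. Mice entered treatment 30 days after induction, with less than 100 mm3 of tumor in total, and stayed on it for up to 30 days or to a tumor of 2 cm3. Every library pooled at least 3 tumors. The remaining libraries, 3 from mice on chow with an inhibitor of the CSF1 receptor (600 mg/kg, labelled CSF1Ri) and 3 from mice given CSF1Ri and the CD40 agonist, called the combination here, are used only where they bear on this comparison. The sources used here give neither age nor sex of the mice.

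CD40 is a receptor of the TNF receptor superfamily on macrophages, dendritic cells and B cells. Its ligand is carried by activated T cells, and an agonist antibody takes the place of that ligand. The receptor recruits TRAF adaptors, which activate the canonical NF-kB pathway through the IkB kinases and the non-canonical pathway through the kinase NIK and the processing of Nfkb2. In macrophages and dendritic cells this is known to raise inflammatory cytokines, chemokines and co-stimulatory molecules.

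Macrophage genes ranged from abundant to low in both groups. Lyz2, a lysozyme gene that myeloid cells share, averaged 14641 ± 2310 CPM (counts scaled to a library of 1000000) with the CD40 agonist and 15680 ± 1957 CPM in Control (SD, n = 3 each). Adgre1, which encodes F4/80, averaged 259 ± 5.89 CPM with the CD40 agonist and 222 ± 7.68 CPM in Control, and Cd68, a lysosomal protein of macrophages, averaged 670 ± 63.7 CPM with the CD40 agonist and 669 ± 18.5 CPM in Control. Mertk, an efferocytosis receptor that defines mature macrophages, was low, at 10.6 ± 0.248 CPM with the CD40 agonist and 6.6 ± 3.39 CPM in Control. The list of 10 macrophage markers summed to 18379, 18803 and 14953 CPM with the CD40 agonist and 17232, 20210 and 16585 CPM in Control. Most of each sum was Lyz2. In 5 of the 10 the groups did not overlap upward (8.77% of all genes did so), and the median log2 fold change was 0.20. The sources used here name no sorting gate. In such bulk libraries fewer cells of a type and less RNA per cell cannot be told apart.

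Total counts ran from 26316328 to 33948213 with the CD40 agonist and from 28709482 to 31698533 in Control. The first principal component of the 6 libraries (28.4% of variance) separated the groups. It put the CD40 agonist libraries at 88.8, 31.4 and 24.1 and Control at -43.5, -65.1 and -35.6. On the second (22.4%) CD40 agonist replicate 1 lay at 69.1, away from replicates 2 and 3 at -68.2 and -47.7. On the third, Control replicate 2 lay at -72.4, away from replicates 1 and 3 at 46.8 and 56.3.

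A difference that the labels do not name separated the groups. Genes of the Y chromosome, which are present only in cells of male origin, were almost absent with the CD40 agonist and abundant in Control. Summed over Eif2s3y, Ddx3y, Uty and Kdm5d, the libraries held 9.62, 7.23 and 10.1 CPM with the CD40 agonist, against 391, 320 and 346 CPM in Control. The groups were far apart. Eif2s3y, a translation initiation factor (chromosome Y, 1010543 to 1028847), had 0.176, 0.0393 and 0.349 CPM with the CD40 agonist and 126, 104 and 129 CPM in Control (log2 fold change -9.20 ± 0.43, SE, edgeR adjusted p = 0.000223). Ddx3y, an RNA helicase (chromosome Y, 1260771 to 1286629), had 0.471, 0.0786 and 0.32 CPM with the CD40 agonist and 203, 169 and 141 CPM in Control (-9.12 ± 0.41, adjusted p = 0.000223). The demethylase genes Uty (-3.40 ± 0.31, adjusted p = 0.0128) and Kdm5d (-2.28 ± 0.31, adjusted p = 0.0406) fell too. Of their X-linked partners, Ddx3x had 324, 337 and 329 CPM with the CD40 agonist and 189, 251 and 214 CPM in Control (adjusted p = 0.122), Kdm6a 93.8, 98.9 and 79.3 CPM with the CD40 agonist and 64.1, 68.6 and 51 CPM in Control (adjusted p = 0.287), and Eif2s3x and Kdm5c overlapped between the groups. These genes were chosen after their values were seen. Treatment and the origin of the Y transcripts cannot be told apart within these 6 libraries, and this holds for every gene described here.

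The combination libraries offer a view of each gene with and without Y transcripts under the antibody. Combination replicates 1 and 3 held 7.95 and 9.91 CPM over the 4 Y-linked genes and replicate 2 held 345 CPM, and the 3 CSF1Ri libraries held 447, 453 and 292 CPM. Replicate 2 stood apart from replicates 1 and 3 in its cell type markers too. Its macrophage markers summed to 33809 CPM, against 13586 and 17000 CPM in replicates 1 and 3, its dendritic cell markers to 168 CPM, against 1607 and 1581 CPM, and its keratinocyte markers to 4.71 CPM, against 82.4 and 88.4 CPM. Lyz2, which myeloid cells share, made up most of the macrophage sum in the CD40 agonist and Control libraries. C1qa, a gene of the same list, was lower in replicate 2 than in replicates 1 and 3. Y transcripts and these markers cannot be told apart within the combination, so what replicate 2 adds is given below as values only.

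**Figure D1:**
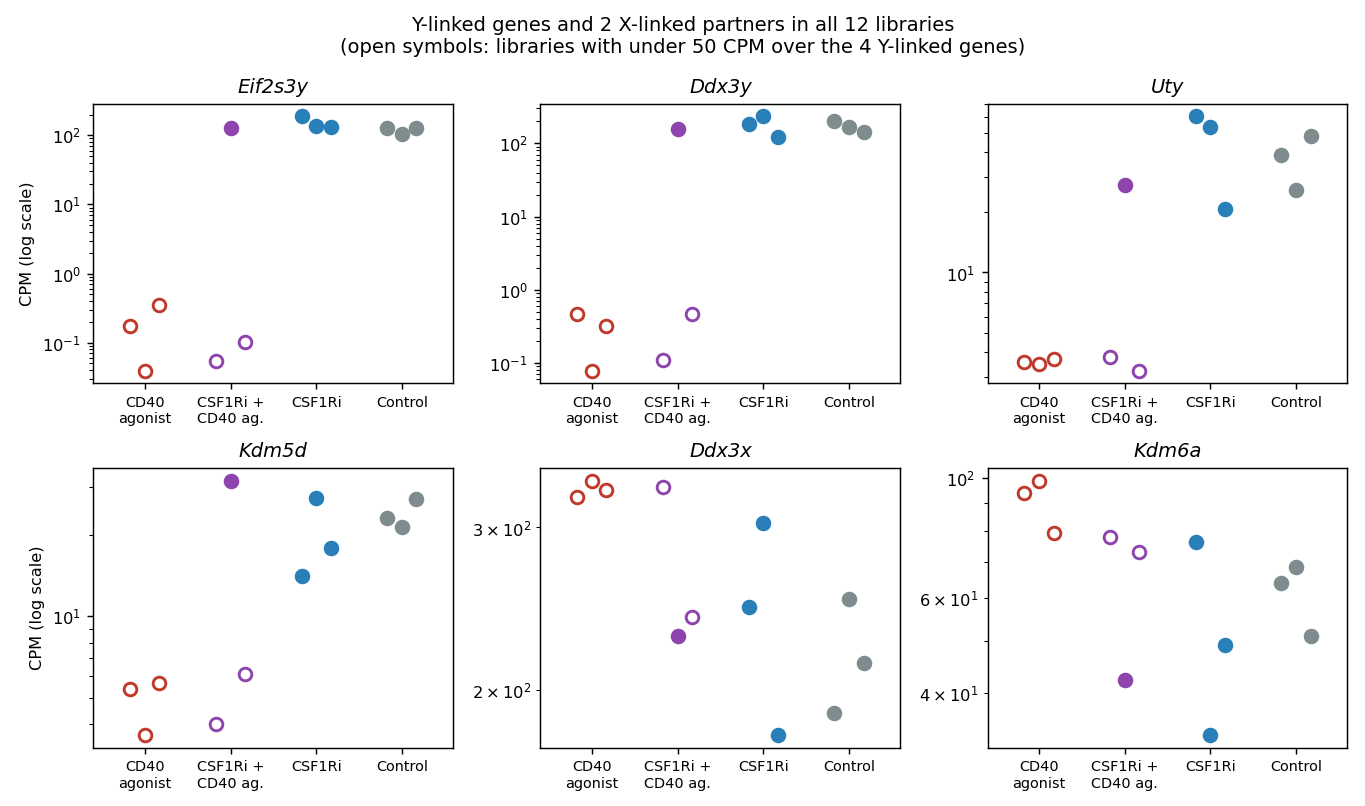
CPM on a log axis of 4 Y-linked genes and 2 X-linked partners in each of the 12 libraries, by group, with 1 point per library and open symbols for libraries with under 50 CPM over the 4 Y-linked genes. The 3 CD40 agonist libraries and combination replicates 1 and 3 lie at the bottom for all 4 Y-linked genes, and combination replicate 2 lies with CSF1Ri and Control.

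The CD40 agonist was set against Control to ask which genes of tumor macrophages differ under the antibody alone. The stress response genes Ppp1r15a and Atf3, the NF-kB pathway genes Nfkbia and Nfkbiz, Tnf and Ccl2 rose, as did Cd207, Mgl2, Mfge8, Cdh1 and Apoe. The interferon-induced genes Rsad2, Ifit3, Ifit1bl1 and Irf7, 3 hemoglobin genes and the neutrophil gene Retnlg fell. In the test of the 6 libraries 43 of 14653 genes (0.293%) passed an adjusted p of 0.05, of which 28 were higher (0.191% of genes) and 15 lower (0.102%). The 15 include the 4 Y-linked genes Eif2s3y, Ddx3y, Uty and Kdm5d. The median log2 fold change over all genes tested was 0.01, and 50.9% were positive. The values of a gene did not overlap between the groups for 1285 genes that were higher with the CD40 agonist (8.77%) and 1308 that were lower (8.93%).

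The number of calls was small and depended on the fit. With 0.293% of all genes called, 0 calls in a gene list lies near the share over all genes. edgeR on all 12 libraries gave 0 calls among 16027 genes (0.0%). An unadjusted p below 0.05 was reached by 1231 genes there (7.68%) and by 1514 genes in the 6 libraries (10.3%). On the 6 libraries DESeq2 called 654 genes (4.31%) and limma voom 8 (0.0546%). Eif2s3y, Ddx3y and Ppp1r15a were the 3 genes called whichever 1 of the 6 libraries was left out.

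**Figure D2:**
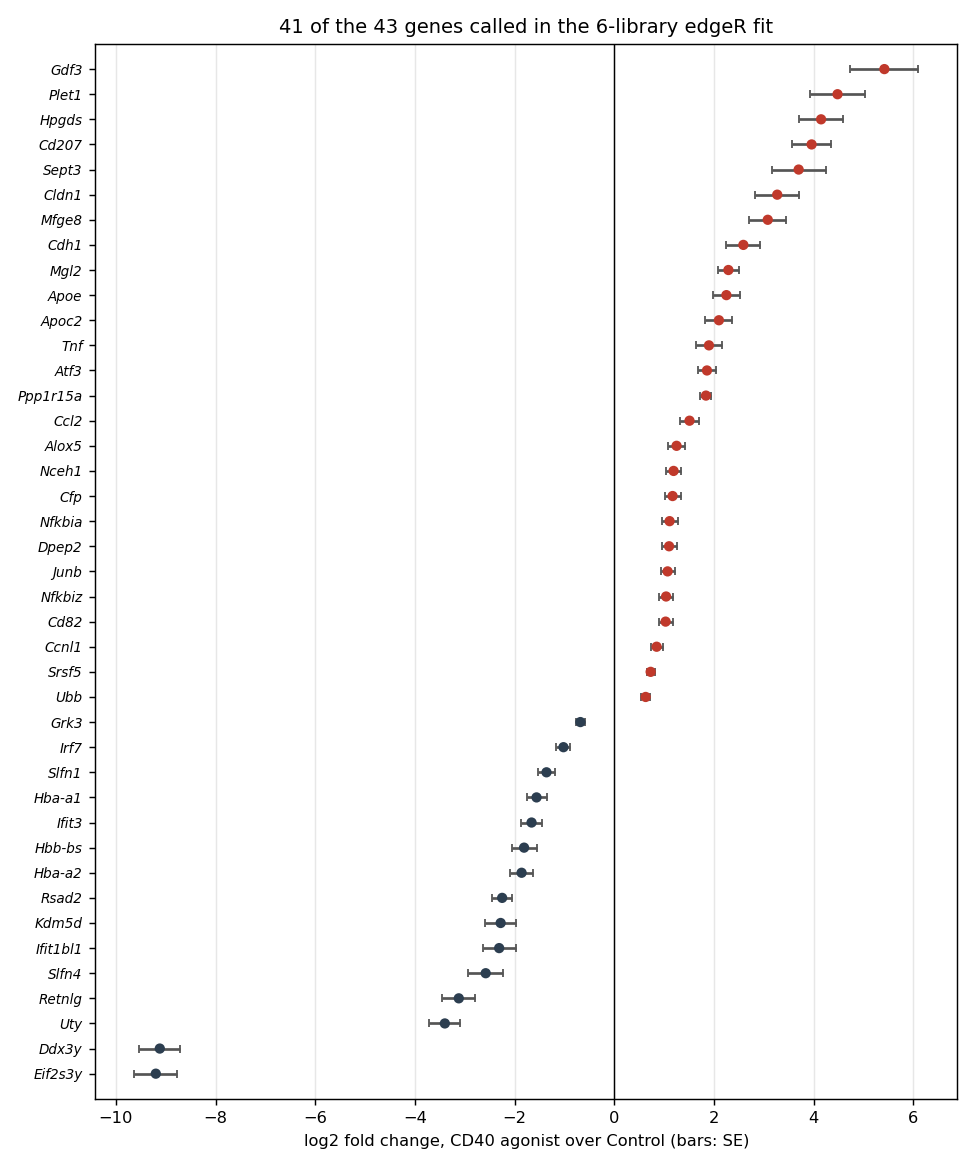
Log2 fold change, CD40 agonist over Control, of 41 genes called in the 6-library fit, with bars for the SE, red points for genes higher with the CD40 agonist and dark points for genes lower. Tspan8 and Pla2g5, with 0 and 1 count in Control, are left out because their fitted values depend on the prior count. Eif2s3y and Ddx3y lie furthest to the left, and Gdf3 and Plet1 furthest to the right.

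Ppp1r15a, Atf3 and Junb, genes of the early response to stress and stimulation, rose with the CD40 agonist. Ppp1r15a, which encodes GADD34, the phosphatase subunit that ends the integrated stress response (chromosome 7, 45522916 to 45526268), had 480, 408 and 454 CPM with the CD40 agonist, against 121, 120 and 133 CPM in Control. Every CD40 agonist library was above every Control library, and the spread within each group was narrow (log2 fold change 1.84 ± 0.11, adjusted p = 0.000941). Atf3, a stress-induced transcription factor that restrains inflammatory genes (chromosome 1, 191170296 to 191218039), had 367, 253 and 250 CPM with the CD40 agonist and 80, 88.8 and 71 CPM in Control. It rose by 1.86 ± 0.18 (adjusted p = 0.0162), and CD40 agonist replicate 1 was the highest. Junb, a subunit of AP-1 (chromosome 8, 84974484 to 84978718), had 220, 193 and 172 CPM with the CD40 agonist and 85.9, 102 and 90.7 CPM in Control (1.07 ± 0.14, adjusted p = 0.0406).

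In the list of 26 immediate early genes, which holds AP-1 and Egr factors and other fast-induced genes, Atf3 and Junb rose and 0 fell. Of all genes tested 0.191% rose and 0.102% fell. A positive log2 fold change was seen for 22 of 26 (84.6%, against 50.9% of all genes tested), the groups did not overlap upward for 14 (8.77% of all genes did so), and the median was 0.40, against 0.01 over all genes. Fos had 1456, 1541 and 1387 CPM with the CD40 agonist and 931, 812 and 598 CPM in Control (0.90 ± 0.16, adjusted p = 0.0799), and Egr1, a zinc finger factor of the same response, 202, 193 and 205 CPM with the CD40 agonist and 138, 118 and 94.2 CPM in Control (0.78 ± 0.15, adjusted p = 0.113). Neither passed the test. Tissue digestion is known to induce these genes. All libraries went through the same digestion of 30 min at 37 °C per the labels, and its part in the result was not tested. The CRE letters TGACGTCA, searched on both strands, were found in the promoter windows of 3 of the 21 list genes that have one (14.3%), against 3.25% of all tested genes with one, and in none of the windows of Atf3 and Junb. The AP-1 letters TGANTCA were found in 0 of the 21, against 6.89% of all tested genes. In the combination, where replicate 2 holds Y transcripts, Ppp1r15a had 563, 669 and 526 CPM and Atf3 527, 447 and 377 CPM. The list summed to 8130, 7298 and 7233 CPM with the CD40 agonist and 5830, 5782 and 5337 CPM in Control. With CSF1Ri alone it summed to 7700, 6916 and 5264 CPM. The part of Y transcripts was not tested.

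Nfkbia and Nfkbiz were the called genes of the NF-kB list. Nfkbia, which encodes IkBa, the inhibitor that NF-kB induces against itself (chromosome 12, 55489410 to 55492647), had 1182, 874 and 770 CPM with the CD40 agonist and 453, 445 and 413 CPM in Control (1.11 ± 0.16, adjusted p = 0.0457). Nfkbiz, which encodes the inducible IkBz (chromosome 16, 55811375 to 55838899), had 402, 317 and 307 CPM with the CD40 agonist and 187, 156 and 156 CPM in Control (1.04 ± 0.14, adjusted p = 0.0408). Both were higher in every CD40 agonist library than in any Control library. Tnfaip3, a further feedback inhibitor known as A20, had 251, 228 and 254 CPM with the CD40 agonist and 95.7, 64.6 and 118 CPM in Control, and missed the threshold (1.40 ± 0.21, adjusted p = 0.0547). The subunit gene Nfkb1 had 250, 231 and 245 CPM with the CD40 agonist and 320, 316 and 318 CPM in Control (-0.39 ± 0.09, adjusted p = 0.18), and the kinase gene Ikbkb 330, 318 and 321 CPM with the CD40 agonist and 400, 404 and 409 CPM in Control (-0.33 ± 0.09, adjusted p = 0.239). Of 18 genes in the list 2 rose and 0 fell, where 0.191% of all genes rose and 0.102% fell. A positive log2 fold change was seen for 11 (61.1%, against 50.9% of all genes). The median of the list was 0.07, against 0.01 over all genes. The list median was -0.04 without CD40 agonist replicate 3 and -0.02 without Control replicate 2.

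Neither the receptor gene nor any other tested gene of the CD40 axis was called. Cd40 (chromosome 2, 165055627 to 165072948) had 99.1, 129 and 121 CPM with the CD40 agonist and 140, 98.1 and 151 CPM in Control, with overlapping groups (-0.16 ± 0.19, adjusted p = 0.829). Of 13 tested genes of the CD40 axis 0 were called, which is near the 0.293% of all genes called. A negative log2 fold change was seen for 10 and a positive one for 3 (23.1%, against 50.9% of all genes). In 5 of them, Birc3, Map3k14, Relb, Nfkb2 and Chuk, every CD40 agonist library was below every Control library (8.93% of all genes did so). Map3k14, the gene of the kinase NIK, had 83.7, 92.9 and 107 CPM with the CD40 agonist and 125, 114 and 129 CPM in Control (-0.38 ± 0.14, adjusted p = 0.405). Nfkb2, whose product NIK signalling processes, had 47.5, 41.7 and 49.2 CPM with the CD40 agonist and 57, 64.1 and 60.7 CPM in Control (-0.40 ± 0.15, adjusted p = 0.436). The median of the axis was -0.25 and stayed between -0.33 and -0.12 when 1 library was left out.

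Among cytokines Tnf was the 1 gene called (0.191% of all genes rose). Tnf (chromosome 17, 35199381 to 35202007) had 115, 76.2 and 58.8 CPM with the CD40 agonist, against 24.7, 20.5 and 21.7 CPM in Control. The antibody libraries varied among themselves, yet all lay above Control (1.90 ± 0.26, adjusted p = 0.0408). In the combination Tnf had 142, 266 and 96.3 CPM. Osm, a cytokine of the IL-6 family, had 205, 137 and 112 CPM with the CD40 agonist and 59.1, 75.8 and 74 CPM in Control (1.12 ± 0.23, adjusted p = 0.126), without overlap. Il12b, the p40 subunit of IL-12 and IL-23, had 14.3, 38.6 and 48.2 CPM with the CD40 agonist and 17.8, 9.27 and 10.1 CPM in Control, where replicate 1 of each group makes them overlap (1.44 ± 0.47, adjusted p = 0.365). Il6 overlapped as well, with 20.7, 28.9 and 14.8 CPM with the CD40 agonist and 10.1, 19.3 and 10.9 CPM in Control (adjusted p = 0.604). Ifnb1, the type I interferon gene, had 0.353, 0.707 and 2.47 CPM with the CD40 agonist and 0 counts in Control, which is at least 37-fold higher against a floor of 3 counts over the Control group (adjusted p = 0.141). Of 20 tested cytokine genes 14 had a positive log2 fold change (70.0%, against 50.9% of all genes) and the median was 0.48.

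CC chemokines had the highest median of the 29 pathway lists, at 1.15, and 11 of 13 were positive (84.6%, against 50.9% of all genes). Ccl2, the ligand of the monocyte receptor CCR2 (chromosome 11, 82035571 to 82037453), had 129, 195 and 158 CPM with the CD40 agonist, against 45.9, 67.5 and 55.2 CPM in Control, and rose by 1.51 ± 0.20 (adjusted p = 0.0406). It was the 1 chemokine called (0.191% of all genes rose). Ccl7, a further CCR2 ligand, had 84.8, 66.7 and 51.5 CPM with the CD40 agonist and 12.5, 21.8 and 22.6 CPM in Control (1.83 ± 0.29, adjusted p = 0.0664). Ccl24, an eosinophil attractant, had 55, 53 and 109 CPM with the CD40 agonist and 23.2, 14.7 and 18 CPM in Control (1.95 ± 0.33, adjusted p = 0.0783). The groups did not overlap for 7 of the 13, all higher, Ccl3 and Ccl4 among them (8.77% of all genes did so upward). Of 13 CXC chemokines 0 were called, where 0.293% of all genes were, and 10 were positive (76.9%, against 50.9% of all genes, median 0.64). Cxcl2, a neutrophil attractant, had 958, 1063 and 573 CPM with the CD40 agonist and 455, 167 and 319 CPM in Control (1.46 ± 0.37, adjusted p = 0.215).

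**Figure D3:**
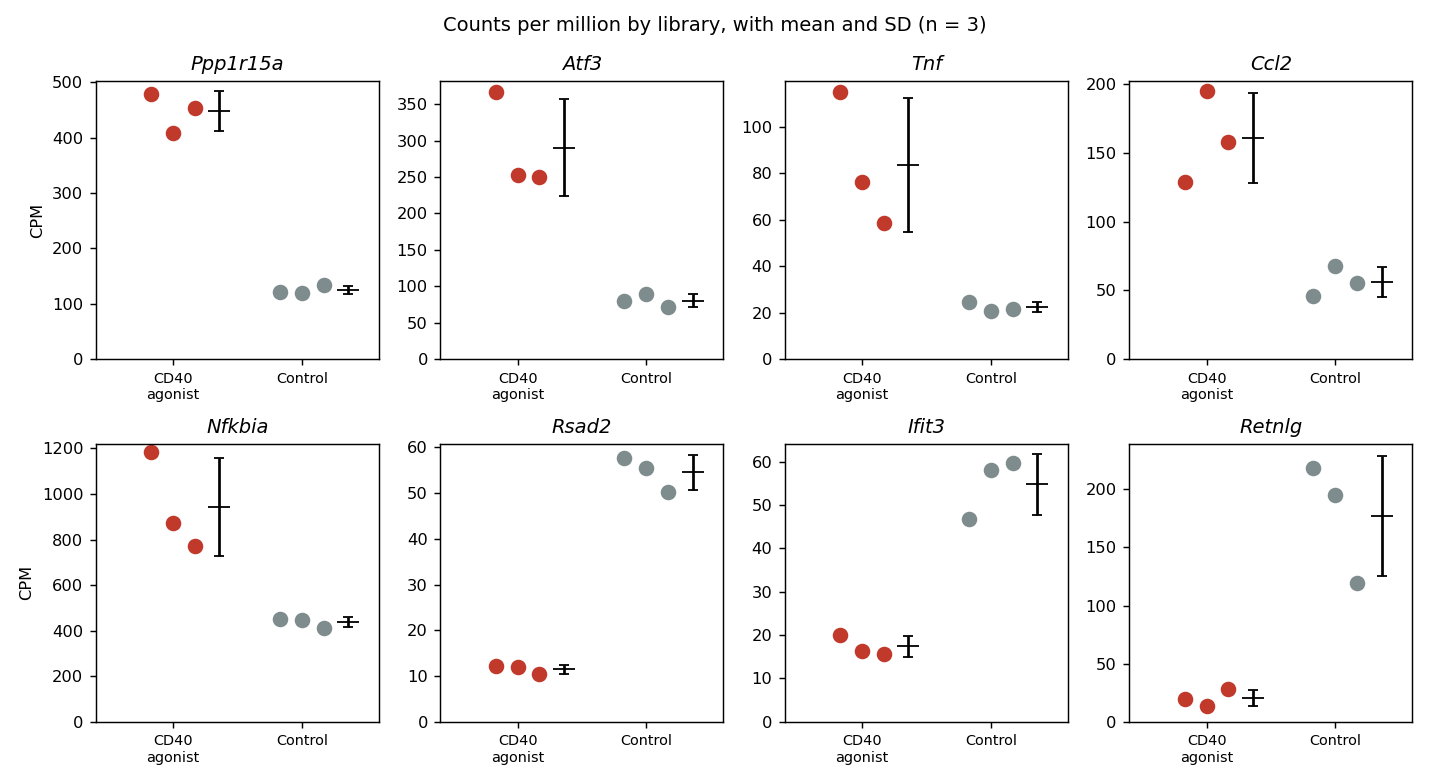
CPM on a linear axis from 0 for 8 called genes in the 3 CD40 agonist and 3 Control libraries, with 1 point per library and the mean with its SD (n = 3) to the right of each group. Ppp1r15a, Atf3, Tnf, Ccl2 and Nfkbia are higher in every CD40 agonist library, and Rsad2, Ifit3 and Retnlg are lower in each.

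Of 38 listed genes that type I interferon induces, Rsad2, Ifit3, Ifit1bl1 and Irf7 fell with the CD40 agonist. Type I interferons induce genes whose promoters often carry an element called ISRE. Rsad2 (viperin), Ifit3 and Ifit1bl1 encode antiviral effectors of that response and Irf7 a transcription factor that amplifies it. A RefSeq promoter window of each of these 4 genes is shown because they carry the element, or lack these letters in the window, beside the same direction of change. Each runs 5′ to 3′ from 250 bases before the gene start to 50 after it on GRCm38.p6, and capitals mark matches to the motif, GAAA and GAAA with any 2 bases between them, which in these windows lies on the opposite strand and reads TTTC and TTTC. Ifit1bl1 has a further window, at another start site, that also holds a match and is not shown.
Rsad2, chr12:26456403-26456702, minus strand: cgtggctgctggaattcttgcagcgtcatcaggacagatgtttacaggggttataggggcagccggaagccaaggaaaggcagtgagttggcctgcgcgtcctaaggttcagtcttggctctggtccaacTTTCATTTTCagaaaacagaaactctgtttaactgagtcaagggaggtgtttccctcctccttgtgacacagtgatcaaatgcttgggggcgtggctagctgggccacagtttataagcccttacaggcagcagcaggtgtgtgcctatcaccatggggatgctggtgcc
Ifit3, chr19:34583279-34583578, plus strand: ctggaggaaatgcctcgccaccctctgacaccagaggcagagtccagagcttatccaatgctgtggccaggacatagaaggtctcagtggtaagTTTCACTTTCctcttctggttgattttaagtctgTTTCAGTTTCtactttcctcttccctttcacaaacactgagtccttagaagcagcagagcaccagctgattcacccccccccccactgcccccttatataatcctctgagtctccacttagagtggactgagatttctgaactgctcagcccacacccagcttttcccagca
Ifit1bl1, chr19:34601919-34602218, minus strand: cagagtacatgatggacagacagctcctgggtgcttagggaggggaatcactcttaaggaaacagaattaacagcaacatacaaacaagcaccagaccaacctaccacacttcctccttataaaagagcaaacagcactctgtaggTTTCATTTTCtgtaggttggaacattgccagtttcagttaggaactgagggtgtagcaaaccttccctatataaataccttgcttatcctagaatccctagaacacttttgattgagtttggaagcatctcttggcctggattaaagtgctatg
Irf7, chr7:141266375-141266674, minus strand: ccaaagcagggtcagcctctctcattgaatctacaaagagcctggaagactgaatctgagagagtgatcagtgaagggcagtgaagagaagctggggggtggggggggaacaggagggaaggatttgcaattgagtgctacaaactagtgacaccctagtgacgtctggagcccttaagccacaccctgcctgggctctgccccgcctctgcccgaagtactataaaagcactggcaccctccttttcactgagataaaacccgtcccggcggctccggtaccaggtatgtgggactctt
Searched on both strands, the motif was found in 15 of the 26 list genes that have a window (57.7%), against 4.14% of all tested genes with one. The Irf7 window held no match, and no match says only that these letters are not in that window. A match is a description and was not tested as a binding site.

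Rsad2 (chromosome 12, 26442746 to 26456452) had 12.1, 12 and 10.4 CPM with the CD40 agonist, against 57.7, 55.5 and 50.2 CPM in Control. Both groups were tight and far apart (-2.25 ± 0.20, adjusted p = 0.0117). Ifit3 (chromosome 19, 34583531 to 34588731) had 20.1, 16.4 and 15.6 CPM with the CD40 agonist and 46.8, 58.1 and 59.6 CPM in Control (-1.66 ± 0.21, adjusted p = 0.0406). Ifit1bl1 (chromosome 19, 34592891 to 34601956) had 4.26, 5.42 and 3.72 CPM with the CD40 agonist and 19.3, 18.9 and 28.1 CPM in Control (-2.31 ± 0.33, adjusted p = 0.0429). Irf7 (chromosome 7, 141262706 to 141266481) had 59.3, 71.1 and 69.2 CPM with the CD40 agonist and 126, 151 and 126 CPM in Control (-1.02 ± 0.14, adjusted p = 0.0408). None of these groups overlapped. The Ifit genes lie side by side and share sequence, so the division of counts among them is uncertain.

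Of the 38 genes in the type I interferon list 4 fell and 0 rose, where 0.102% of all genes fell and 0.191% rose. A negative log2 fold change was seen for 34, the groups did not overlap downward for 22 (8.93% of all genes did so), and the median was -0.65. The median stayed between -0.77 and -0.54 when 1 library was left out. Ifit1 had 14.2, 15.2 and 8.4 CPM with the CD40 agonist and 50.6, 51.3 and 37 CPM in Control (-1.88 ± 0.29, adjusted p = 0.0579), and Oas3, an activator of RNA decay in infected cells, 10.1, 14 and 11 CPM with the CD40 agonist and 42.5, 27.6 and 34.9 CPM in Control (-1.58 ± 0.27, adjusted p = 0.0748). Neither passed the test. Slfn4 (-2.58 ± 0.35, adjusted p = 0.0406) and Slfn1 (-1.36 ± 0.17, adjusted p = 0.0406), interferon-inducible Schlafen genes of myeloid and T cells, fell outside the list.

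Y transcripts and the cell type markers of combination replicate 2 moved with this result. Within the combination, 35 of the 38 genes (92.1%) were lower in both libraries without Y transcripts than in replicate 2, which has them, where 34.9% of all genes tested were. Irf7 had 47.2 and 93.8 CPM in combination replicates 1 and 3 and 221 CPM in replicate 2. Rsad2 did not follow, at 4.27 and 19.6 CPM in replicates 1 and 3 and 10.9 CPM in replicate 2. With a term for Y transcripts in a fit of the 12 libraries, which rests on that 1 library for separating the 2 influences, the median of the list was 0.48. Replicate 2 was also above both other combination libraries for 20 of 21 interferon gamma response genes, 17 of 19 MHC class I genes and 10 of 12 classical monocyte genes. The part of Y transcripts and of these markers in the interferon result was not tested.

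Of 21 tested genes of the response to interferon gamma 0 were called, 12 were negative, and the groups did not overlap downward for 5 (8.93% of all genes did so). The median was -0.21, between -0.39 and -0.07 when 1 library was left out, and 1.03 with the term for Y transcripts. Irgm2, an immunity-related GTPase, had 24.7, 28.8 and 30.6 CPM with the CD40 agonist and 61.5, 58.4 and 66.3 CPM in Control (-1.15 ± 0.17, adjusted p = 0.0534), and the transcription factor gene Irf1 209, 186 and 217 CPM with the CD40 agonist and 380, 312 and 352 CPM in Control (-0.77 ± 0.12, adjusted p = 0.0563). Ifng itself, a product of NK and T cells, was at 17.6, 19.5 and 11.3 CPM with the CD40 agonist and 4.47, 2.85 and 3.05 CPM in Control (2.22 ± 0.39, adjusted p = 0.0802).

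The largest rises were of genes outside the inflammatory lists. Cd207, which encodes langerin, the C-type lectin of Langerhans cells and some dermal dendritic cells (chromosome 6, 83671215 to 83677857), had 56.4, 94.8 and 131 CPM with the CD40 agonist, against 6.87, 3.89 and 7.33 CPM in Control. It rose in all 3 libraries beyond any Control value (3.96 ± 0.39, adjusted p = 0.0162). Cdh1, which encodes the adhesion protein E-cadherin (chromosome 8, 106603351 to 106670246), had 191, 211 and 290 CPM with the CD40 agonist and 22, 36.5 and 56 CPM in Control (2.59 ± 0.34, adjusted p = 0.0406). Cldn1, a tight junction protein (chromosome 16, 26356642 to 26371841), had 161, 240 and 388 CPM with the CD40 agonist and 23.9, 15.7 and 42.2 CPM in Control (3.27 ± 0.44, adjusted p = 0.0407). Epcam, an epithelial adhesion molecule that Langerhans cells also carry, had 30.9, 34.5 and 47.9 CPM with the CD40 agonist and 3.19, 8.77 and 5.49 CPM in Control (2.70 ± 0.41, adjusted p = 0.0547). Ly75 and Cd24a, also carried by Langerhans cells, overlapped between the groups, with adjusted p of 0.774 and 0.972. These 6 genes were put together after their values were seen, so no test is attached to them as a group. Keratinocytes also carry Cdh1 and Cldn1. Keratinocyte markers summed to 19.9, 15.5 and 27.5 CPM with the CD40 agonist and 22.5, 71.6 and 25.1 CPM in Control over their list of 12 genes, of which 1 of 8 tested was positive.

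Mgl2, a galactose-type lectin of alternatively activated macrophages and dermal dendritic cells (chromosome 11, 70130329 to 70137550), had 324, 361 and 487 CPM with the CD40 agonist and 89.4, 61.3 and 88.9 CPM in Control (2.29 ± 0.21, adjusted p = 0.0128). Mfge8, a bridge between apoptotic cells and phagocytes (chromosome 7, 79133768 to 79149060), had 579, 1045 and 1579 CPM with the CD40 agonist and 110, 103 and 166 CPM in Control (3.08 ± 0.37, adjusted p = 0.0406). Hpgds, the hematopoietic prostaglandin D synthase, had 71.3, 89.4 and 148 CPM with the CD40 agonist and 4.41, 9.24 and 3.72 CPM in Control (4.15 ± 0.44, adjusted p = 0.0229). All of these were lowest in CD40 agonist replicate 1 and highest in replicate 3, as Cd207 was. Plet1 (4.48 ± 0.55), Sept3 (3.70 ± 0.54) and Gdf3 (5.42 ± 0.68), with adjusted p between 0.0406 and 0.0497, rose from low levels, Gdf3 at 10.1 ± 2.81 CPM with the CD40 agonist and 0.231 ± 0.141 CPM in Control. Tspan8, a tetraspanin, had 866 counts over the 3 CD40 agonist libraries and 0 in Control, which is at least 279-fold higher against a floor of 3 counts over the Control group. Pla2g5, a secreted phospholipase, had 390 counts over the CD40 agonist libraries and 1 in Control.

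In the combination the genes called higher did not share 1 pattern. Of the 28, 12 (42.9%) were higher in both libraries without Y transcripts than in replicate 2 and 9 (32.1%) were lower in both, against 35.9% and 34.9% of all genes tested. Cd207 had 9.01 and 17.3 CPM in replicates 1 and 3 and 0.136 CPM in replicate 2, and Mgl2 had 250 and 292 CPM in replicates 1 and 3 and 10.4 CPM in replicate 2, the library low in dendritic cell and keratinocyte markers. Gdf3 was low in all 3, at 0.272 and 0.0511 CPM in replicates 1 and 3 and 0.983 CPM in replicate 2. With the term for Y transcripts the log2 difference of Mgl2 was -2.41 (adjusted p = 0.0419) and that of Cd207 -2.60, both opposite to the 6 libraries. Tspan8 and Pla2g5 had 0 counts in all combination and CSF1Ri libraries.

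**Figure D4:**
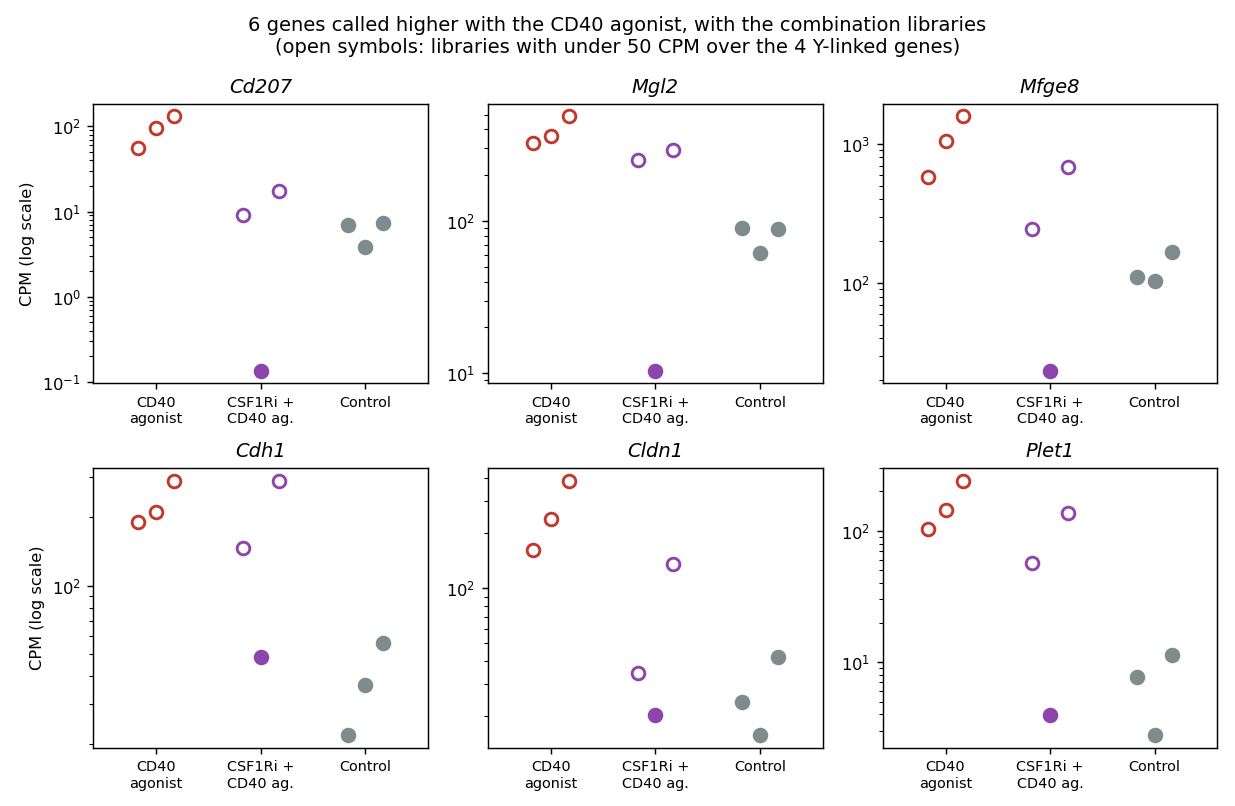
CPM on a log axis of 6 genes called higher with the CD40 agonist, in the CD40 agonist, combination and Control libraries, with 1 point per library and open symbols for libraries with under 50 CPM over the 4 Y-linked genes. All CD40 agonist libraries lie above all Control libraries, and combination replicate 2, the filled point of that group, lies below the other two combination libraries.

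Apoe, Apoc2, Cfp, Alox5 and Nceh1 rose as well. Apoe, the apolipoprotein that macrophages secrete for cholesterol efflux (chromosome 7, 19696109 to 19699188), had 256, 399 and 424 CPM with the CD40 agonist and 52.9, 73.7 and 99.3 CPM in Control (2.25 ± 0.27, adjusted p = 0.0406). Apoc2, its neighbour on the chromosome and the activator of lipoprotein lipase, had 40.6, 28.9 and 26.8 CPM with the CD40 agonist and 8.2, 7.28 and 7 CPM in Control (2.10 ± 0.27, adjusted p = 0.0406). Cfp, which encodes properdin, the stabiliser of the alternative complement pathway, had 301, 425 and 444 CPM with the CD40 agonist and 172, 181 and 164 CPM in Control (1.17 ± 0.16, adjusted p = 0.0406). Groups did not overlap for any of the 3. With the term for Y transcripts the log2 differences of Apoe and Apoc2 were -0.87 and -0.58, opposite to the 6 libraries. Of 14 complement genes 13 were positive (92.9%, against 50.9% of all genes, median 0.56). The C1q chains, made by tissue macrophages, stood higher without being called, C1qa at 30.4, 63.7 and 109 CPM with the CD40 agonist and 16.4, 16.1 and 16.1 CPM in Control (2.06 ± 0.42, adjusted p = 0.121). In the combination C1qa had 84.8 and 20.2 CPM in replicates 1 and 3 and 1.93 CPM in replicate 2.

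Of 19 alternative activation genes Mgl2 rose (0.191% of all genes did so) and 15 were positive. The median was 0.79, between 0.50 and 1.07 when 1 library was left out, and -1.18 with the term for Y transcripts. Retnla had 271, 644 and 1078 CPM with the CD40 agonist and 307, 241 and 170 CPM in Control, and Mrc1, the mannose receptor, 88.6, 198 and 182 CPM with the CD40 agonist and 110, 98.4 and 62.7 CPM in Control. Both overlapped through CD40 agonist replicate 1 (adjusted p = 0.308 and 0.464). Arg1 had 183, 176 and 27.6 CPM with the CD40 agonist and 119, 115 and 172 CPM in Control (adjusted p = 0.98). In the list of 19 lipid handling genes 0 were called, 12 were negative (median -0.22) and 7 did not overlap downward (8.93% of all genes did so), among them the fatty acid binding protein genes Fabp5 (266, 436 and 319 CPM with the CD40 agonist and 700, 638 and 923 CPM in Control, -1.15 ± 0.21, adjusted p = 0.0902) and Fabp4 (-0.97 ± 0.20, adjusted p = 0.119). Alox5, the 5-lipoxygenase of leukotriene synthesis, had 64.9, 71.7 and 83.5 CPM with the CD40 agonist and 29.7, 30.5 and 32.1 CPM in Control (1.25 ± 0.17, adjusted p = 0.0406). Nceh1, a hydrolase of cholesterol esters, rose by 1.19 ± 0.15 (adjusted p = 0.0406).

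Antigen presentation and co-stimulation genes held 0 calls, where 0.293% of all genes were called. Of 11 tested MHC class II genes 9 were positive (median 0.36, between 0.11 and 0.53 when 1 library was left out). H2-DMb2, a chain of the peptide exchange factor, had 148, 181 and 271 CPM with the CD40 agonist and 58.6, 45.9 and 79.6 CPM in Control (1.70 ± 0.28, adjusted p = 0.0674), and H2-Oa, a chain of its inhibitor, 28.3, 25.5 and 38.6 CPM with the CD40 agonist and 13.5, 11.2 and 10.1 CPM in Control (1.41 ± 0.27, adjusted p = 0.0998). H2-Aa, a chain of the class II molecule itself, overlapped, at 3902, 5526 and 6738 CPM with the CD40 agonist and 4312, 3811 and 4205 CPM in Control. Cd80, a ligand of CD28, averaged 17.5 ± 2.92 CPM with the CD40 agonist and 15.1 ± 1.75 CPM in Control (SD, n = 3 each, edgeR adjusted p = 0.853). Cd86, the other ligand, averaged 245 ± 13.4 CPM with the CD40 agonist and 191 ± 44.4 CPM in Control (edgeR adjusted p = 0.548). Cd274, which encodes PD-L1, averaged 189 ± 40.2 CPM with the CD40 agonist and 218 ± 37.3 CPM in Control (adjusted p = 0.777). Of 19 MHC class I genes 7 were positive and the median was -0.10.

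Genes of patrolling monocytes were mostly below Control, with 0 calls where 0.293% of all genes were called. Of 15 tested 2 were positive and 6 did not overlap downward (median -0.24, and 8.93% of all genes did so). Ace, which marks these cells, had 225, 176 and 185 CPM with the CD40 agonist and 289, 286 and 289 CPM in Control (-0.56 ± 0.12, adjusted p = 0.137), and Treml4, a receptor of the same cells, 363, 368 and 355 CPM with the CD40 agonist and 453, 476 and 448 CPM in Control (-0.34 ± 0.09, adjusted p = 0.215). Plac8, a gene of classical monocytes, had 987, 1160 and 942 CPM with the CD40 agonist and 1611, 1552 and 1367 CPM in Control (-0.55 ± 0.11, adjusted p = 0.119). In the list of 12 classical monocyte genes 9 were positive (75.0%, against 50.9% of all genes, median 0.19). The groups did not overlap upward for 0 of them and downward for 3 (8.77% and 8.93% of all genes did so).

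Among the 12 marker lists of other cell types, those of neutrophils and of red cells and platelets held called genes. Retnlg, a secreted protein of neutrophils (chromosome 16, 48872621 to 48874496), had 19.4, 13.8 and 28.1 CPM with the CD40 agonist, against 218, 195 and 119 CPM in Control, and fell by 3.12 ± 0.33 on the log2 scale (adjusted p = 0.0218). The other neutrophil genes did not move as one. S100a9 had 52.4, 47.7 and 54.8 CPM with the CD40 agonist and 242, 62.7 and 73.7 CPM in Control (adjusted p = 0.422), and the granule gene Ngp 107, 37.5 and 19.8 CPM with the CD40 agonist and 0.0304, 18.8 and 1.44 CPM in Control (adjusted p = 0.53). The whole list of 14 summed to 656, 487 and 486 CPM with the CD40 agonist and 1451, 722 and 581 CPM in Control, and 5 of 13 tested were positive. Ly6g, a defining marker, had too few counts in the 6 libraries to be tested and was at 0 in all 3 CD40 agonist libraries. The hemoglobin genes that fell were Hba-a1, Hba-a2 and Hbb-bs, with log2 fold changes of -1.56 ± 0.20, -1.86 ± 0.23 and -1.81 ± 0.25 (adjusted p = 0.0406, 0.0406 and 0.0429). Hbb-bs had 72.3, 77 and 43.9 CPM with the CD40 agonist and 248, 260 and 167 CPM in Control. The list of 11 red cell and platelet genes summed to 223, 263 and 182 CPM with the CD40 agonist and 674, 689 and 468 CPM in Control. The alpha genes are near-identical copies, so their split is uncertain. With the term for Y transcripts the 3 hemoglobin differences were 0.19, 0.06 and 0.32.

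Marker genes of other cells of the tumor were detected in both groups. NK and cytotoxic genes summed to 1839, 2107 and 1065 CPM with the CD40 agonist and 990, 867 and 1160 CPM in Control over 13 genes, of which 9 of 12 tested were positive and 4 did not overlap upward (8.77% of all genes did so). Melanocyte and melanoma genes summed to 78.2, 53.6 and 58 CPM with the CD40 agonist and 30.6, 31.5 and 33.4 CPM in Control, with 7 of 9 tested positive. B and plasma cell genes summed to 1027, 752 and 1041 CPM with the CD40 agonist and 513, 444 and 725 CPM in Control, with 10 of 11 tested positive. In the 6 libraries the medians of the NK, melanocyte and B cell lists were 0.73, 1.65 and 0.83. With the term for Y transcripts these medians were 1.03, -0.54 and -2.81. The part of these cells in the results above was not tested. T cell genes (119, 136 and 204 CPM with the CD40 agonist and 120, 143 and 156 CPM in Control) and the list of 12 dendritic cell genes (996, 1029 and 1168 CPM with the CD40 agonist and 976, 1028 and 1368 CPM in Control) overlapped. Zbtb46, a transcription factor of classical dendritic cells, averaged 17.8 ± 3.99 CPM with the CD40 agonist and 19.6 ± 1.71 CPM in Control (adjusted p = 0.901).

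Most proliferation and respiration genes had positive log2 fold changes, with 0 calls. Of 25 cell cycle genes 23 were positive, against 50.9% of all genes, and 10 did not overlap upward, against 8.77% (median 0.88), with Mki67, a marker of cycling cells, at 41.4, 43.5 and 55.1 CPM with the CD40 agonist and 28.2, 31.8 and 20.1 CPM in Control (0.80 ± 0.24, adjusted p = 0.287). All 13 mitochondrially encoded genes and all 24 nuclear genes of the respiratory chain were positive, with medians of 0.31 and 0.18, and 8 of each list did not overlap upward (8.77% of all genes did so). Genes of such lists share regulation and are not independent, so their counts describe these libraries. With the term for Y transcripts the medians of the cell cycle and CC chemokine lists were -0.43 and -0.10, those of the mitochondrial and nuclear respiratory genes 0.00 and 0.43, and that of the immediate early genes was 0.29.

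**Figure D5:**
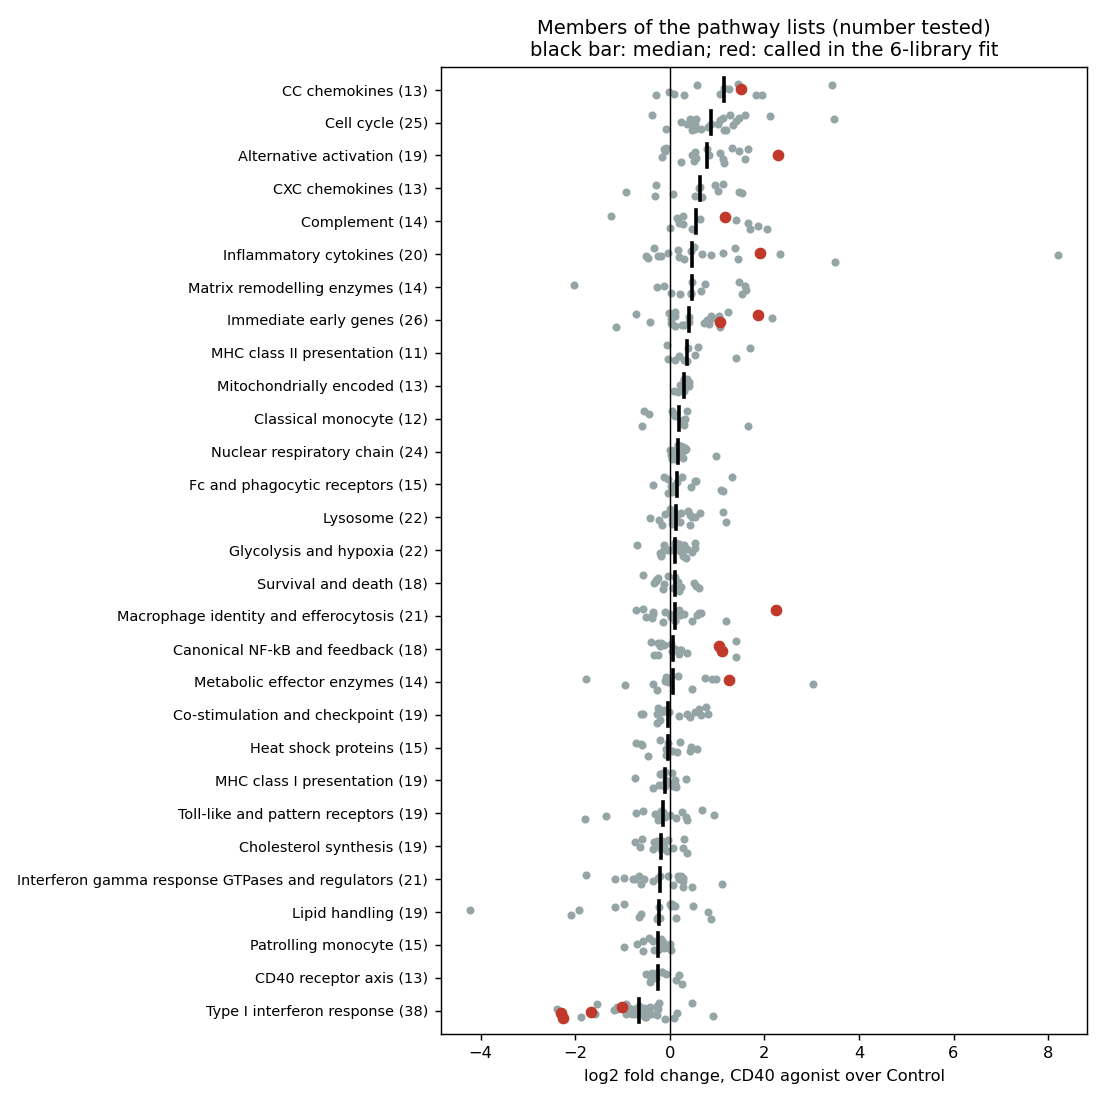
Log2 fold change, CD40 agonist over Control, of every tested member of the 29 pathway lists, with 1 point per gene, red for genes called in the 6-library fit, and a black bar at the list's median. CC chemokines (median 1.15) are at the top and type I interferon genes (median -0.65), with 4 called members, at the bottom.

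The remaining called genes lie outside these lists. Grk3, a kinase of G protein-coupled receptors, had 283, 263 and 294 CPM with the CD40 agonist and 442, 436 and 466 CPM in Control (-0.68 ± 0.09, adjusted p = 0.0408). Ubb, a ubiquitin gene, Srsf5, a splicing factor, Ccnl1, a cyclin of splicing, Cd82, a tetraspanin, and Dpep2, a dipeptidase that converts leukotrienes, rose by 0.63 to 1.10. These 5 were named after their values were seen. Srsf5 had 517, 519 and 523 CPM with the CD40 agonist and 316, 315 and 309 CPM in Control (0.73 ± 0.08, adjusted p = 0.0357), with little spread inside either group.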

How the data were processed

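RNA sequencing of 12 libraries was used, 6 of them for this comparison. Per the labels' protocols, collagenase digestion was followed by lysis of red cells and removal of dead cells on a density medium. RNA (50 ng) went into a kit that does not mark strand, and 6 libraries shared a lane of paired 75-bp reads. The sources used here do not say which. The genotype is given here in part only.

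Per the submitters' processing notes reads were processed with STAR, HTSeq and DESeq2 on mm10. The deposited files differ: per the file headers they hold an estimated count and a TPM value per transcript, in a layout that transcript quantifiers write. No source used here names the quantifier. The authors deposited estimated counts as unnormalized values, which were used, and TPM, scaled by the authors to 1000000 per library, which was not tested. Of 111462 transcripts 110203 (98.9%) matched GENCODE M21 (GRCm38), and the others, with 0.385% to 0.436% of the counts in the 6 libraries, were left out. Estimated counts were summed per gene and rounded. Coordinates are gene spans on GRCm38, 1-based.

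The 3 CD40 agonist and 3 Control libraries were fitted in R 4.3.3 by the robust quasi-likelihood test of edgeR 4.0.16 after filterByExpr and TMM scaling, and called at a Benjamini-Hochberg adjusted p below 0.05 over all genes tested. Adjusted p-values in the text are from this fit unless another is named. The SE, given as ± after a log2 fold change, is approximate. It is the size of that change divided by the square root of the test's F statistic, so it adds nothing to the p-value. Printed CPM were scaled by TMM over all 12 libraries, and the test scaled the 6 alone. The script was tested on simulated data. Floors of 3 counts per group cover counting error only. Mice were co-housed where possible, and nothing states separate cages or days for the replicates, so p-values reflect the spread between these pools, which may be technical.

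Alternatives were DESeq2 1.42.0, limma 3.58.1 voom, DESeq2 size factors in edgeR, no filter on low counts, the other form of the edgeR fit, all 12 libraries, a replicate block and leaving out each library. A fit with a term for Y transcripts and one without 2 libraries that stood apart, combination replicate 2 and CSF1Ri replicate 3, were added after seeing the data. Genes were named by a rule: up to 20 called genes with the largest rise and 20 with the largest fall, called list members, up to 4 members per list with the smallest unadjusted p, and fixed receptor, cytokine and macrophage genes. Other genes named are members given as examples. The comparison, its 42 gene lists and the choice of 6 libraries were made with earlier results of these data known.

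Promoter windows are from RefSeq (GRCm38.p6).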

Additional observations from a re-analysis of the deposited data

How the results depend on the processing

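edgeR called 43 genes, 28 higher and 15 lower. DESeq2 called 654 (410 higher, 244 lower), limma voom 8 (5 and 3), and edgeR on all 12 libraries 0 (0 and 0). The submitters' threshold, a log2 fold change of 1.5 and an adjusted p of 0.01 in DESeq2, gave 70 (47 and 23). That adjusted p was a step-down Sidak correction, which is stricter than the Benjamini-Hochberg one behind the other counts. DESeq2 size factors gave 43, no filter on low counts 41, the other form of the edgeR fit 54 and 10 libraries 38. Leaving out 1 library left 3 to 9 calls (1 to 6 higher, 2 to 3 lower), 9 without CD40 agonist replicate 1 and 5 without Control replicate 2. All 43 genes kept their direction in each of these fits. Whether the replicate numbers pair the libraries is not known. Deviations of same-numbered libraries correlated at -0.023, -0.006 and -0.016, which cannot show whether they shared a cage, day or lane. The replicate block gave 13 calls (8 and 5).

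With a term for Y transcripts in the 12 libraries, 29 genes were called, 16 higher and 13 lower, of which Mgl2 was 1 of the 43. Reversed there were Apoe (-0.87), Apoc2 (-0.58), Mfge8 (-1.22), Plet1 (-0.15), Cd207 (-2.60), Mgl2 (-2.41), Irf7 (0.63), Slfn1 (0.67), Kdm5d (0.37), Eif2s3y (1.40), Hba-a1 (0.19), Hba-a2 (0.06) and Hbb-bs (0.32), and 12 of 42 list medians changed sign. That term is estimated from the 3 combination libraries alone, since no other group holds both kinds, and so rests on replicate 2, which stands apart. The cause of these differences between fits was not tested. Between 26316328 and 33948213 counts per library leave genes of few counts, such as Ifnb1, with wide error. The fold change of Tspan8 is uncertain because it had 0 counts in Control.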

Other observations

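Several functional groups not described above held few or no calls. Of 22 lysosome genes 18 were positive and 5 did not overlap upward (8.77% of all genes did so). The median was 0.14, and 0.07 without CD40 agonist replicate 2 or without replicate 3. Ctsb, a cathepsin, had 2615, 3310 and 3326 CPM with the CD40 agonist and 2472, 2141 and 2432 CPM in Control (log2 fold change 0.39 ± 0.12, edgeR adjusted p = 0.293). Of 14 matrix remodelling genes 11 were positive (median 0.46). Mmp12, the macrophage elastase, had 168, 297 and 353 CPM with the CD40 agonist and 39.4, 138 and 92.6 CPM in Control (1.6 ± 0.44, adjusted p = 0.264). Mmp9, the gelatinase, lay the other way, at 12.5, 5.93 and 2.09 CPM with the CD40 agonist and 47.8, 19.2 and 16.5 CPM in Control (-2.02 ± 0.68, adjusted p = 0.374). Neither gene overlapped between the groups, and neither passed the test.

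Of 15 heat shock genes 6 were positive (median -0.04). Hspa5, the chaperone of the endoplasmic reticulum, was at 1432, 1549 and 1411 CPM with the CD40 agonist and 922, 976 and 1065 CPM in Control, without overlap (0.57 ± 0.09, adjusted p = 0.0664). Of 19 tested pattern recognition genes 7 were positive (median -0.14). Tlr2, the receptor of bacterial lipoproteins, had 178, 188 and 148 CPM with the CD40 agonist and 103, 82.5 and 81.4 CPM in Control (0.94 ± 0.15, adjusted p = 0.0664). Ptgs1, the constitutive cyclooxygenase, had 33.9, 106 and 183 CPM with the CD40 agonist and 10.7, 21.7 and 7.33 CPM in Control (3.02 ± 0.64, adjusted p = 0.132). The medians of the glycolysis and hypoxia (0.12), cholesterol synthesis (-0.19), survival and death (0.10), Fc and phagocytic receptor (0.15), macrophage identity (0.10), co-stimulation and checkpoint (-0.04) and metabolic effector (0.06) lists lay between -0.19 and 0.15, beside 0.01 for all genes.

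Mast cell, basophil and eosinophil markers summed to 384, 298 and 182 CPM with the CD40 agonist and 166, 233 and 170 CPM in Control. Fibroblast, endothelial and muscle and adipocyte markers had 7 of 12, 8 of 10 and 1 of 7 tested genes positive, with 0 calls.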
